A study of Mus musculus with 26 samples.

Results

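The genes described here were 8 imprinted genes of the mouse: Dlk1, Rtl1, Meg3 and Rian of the Dlk1-Meg3 domain on chromosome 12, and Peg3, Cdkn1c, Mest and Nnat from domains on other chromosomes. They were taken by symbol from every expression table of a study of the mouse RPE/choroid, the retinal pigment epithelium with its vascular bed, and made up 8 of the 19921 gene names over all tables. The 2 scRNAseq libraries listed 7 of them among 16426 genes (Rian had no row), both bulk RNAseq tables listed all 8 among 17623 genes, and a table of 99 genes enriched in choroidal endothelial cells (ECs) listed Dlk1 and Rtl1. The members were chosen by their levels over the clusters of these libraries and in the bulk tables, so the levels are given as a description and without a test.

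The scRNAseq libraries came from RPE/choroid of 3-month-old mice, 1 library from C57BL/6J and 1 from the F1 hybrid B6129PF1/J, each with 1 eye of a male and 1 eye of a female pooled and sorted for live nucleated cells. ECs of the neural retina and of lung, liver and heart were sorted from 1-month-old B6129PF1/J mice after intravital VE-cadherin staining, with 3 isolations each (7 mice per isolation for retina, 1 mouse for the other organs). Bulk RPE/choroid came from 6-month-old mice, 12 weeks after tamoxifen, of 2 genotypes with 3 mice each: Ihh+/+ and IhhiΔEC/iΔEC, in which the Cdh5 promoter drives a tamoxifen-inducible Cre in ECs and deletes Indian hedgehog (Ihh). Both genotypes carried the Cre transgene and received tamoxifen. GLI1+ stromal cells were sorted for GFP from RPE/choroid of 6 adult female Gli1GFP/+ mice (labelled SWR/J, a line that the study had outcrossed to BALB/c), expanded in culture, starved of serum overnight and exposed for 24 h to vehicle (DMSO) or to 100 nM SAG, an agonist of the hedgehog transducer Smoothened, with 3 replicates each from these pooled mice.

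Imprinted genes are transcribed mainly from the copy inherited from one parent, which is fixed by DNA methylation laid down in the germ line. In the Dlk1-Meg3 domain the paternal copy gives the protein-coding genes Dlk1 and Rtl1, and the maternal copy gives the long noncoding RNAs Meg3, Rian and Mirg, which also carry microRNAs and small nucleolar RNAs. Many imprinted genes are abundant in the embryo and are held at low levels in most adult tissues. Read counts summed over both alleles, as in these tables, hold no parental information, so imprinting itself was not measured and only the level of each gene is described.

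The 4 domain members lie on chromosome 12 of the mm10 assembly in the order Dlk1 (chr12:109452823-109463336, plus strand), Meg3 (chr12:109541001-109571726, plus), Rtl1 (chr12:109589193-109600330, minus) and Rian (chr12:109603940-109661716, plus), by GENCODE annotation. Dlk1 encodes a transmembrane protein of the Delta/Notch-like family with epidermal growth factor repeats, and Rtl1 a retrotransposon-derived protein. The promoters of Dlk1 and Meg3, the genes found below in the same ECs, and those of Mest and Nnat are shown as examples of how unlike the starts of imprinted genes are. Each is 300 bases of RefSeq sequence from GRCm38.p6, plus strand, at chr12:109452573-109452872 for Dlk1, chr12:109540746-109541045 for Meg3, chr6:30737800-30738099 for Mest (the second of its 3 listed starts) and chr2:157559828-157560127 for Nnat. Capitals mark TGCCGC or its reverse complement GCGGCA, the core of the methylated motif bound by ZFP57, a zinc finger protein that maintains imprints.
Dlk1 promoter: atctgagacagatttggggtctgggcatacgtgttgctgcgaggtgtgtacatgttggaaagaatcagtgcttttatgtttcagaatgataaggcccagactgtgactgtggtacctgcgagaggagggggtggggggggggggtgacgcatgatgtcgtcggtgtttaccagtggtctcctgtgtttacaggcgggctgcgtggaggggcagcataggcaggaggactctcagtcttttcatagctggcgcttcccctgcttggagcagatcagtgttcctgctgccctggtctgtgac
Meg3 promoter: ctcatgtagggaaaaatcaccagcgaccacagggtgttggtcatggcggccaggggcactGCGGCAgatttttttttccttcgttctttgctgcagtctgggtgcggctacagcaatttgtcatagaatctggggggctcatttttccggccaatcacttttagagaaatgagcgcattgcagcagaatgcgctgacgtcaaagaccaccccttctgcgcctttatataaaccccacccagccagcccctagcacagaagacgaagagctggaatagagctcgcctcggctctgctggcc
Mest promoter: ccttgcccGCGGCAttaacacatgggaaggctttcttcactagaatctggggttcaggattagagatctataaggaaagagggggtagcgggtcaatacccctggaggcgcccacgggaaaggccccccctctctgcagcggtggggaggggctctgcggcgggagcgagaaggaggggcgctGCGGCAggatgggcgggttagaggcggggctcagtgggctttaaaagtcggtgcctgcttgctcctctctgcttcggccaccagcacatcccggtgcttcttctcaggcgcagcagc
Nnat promoter: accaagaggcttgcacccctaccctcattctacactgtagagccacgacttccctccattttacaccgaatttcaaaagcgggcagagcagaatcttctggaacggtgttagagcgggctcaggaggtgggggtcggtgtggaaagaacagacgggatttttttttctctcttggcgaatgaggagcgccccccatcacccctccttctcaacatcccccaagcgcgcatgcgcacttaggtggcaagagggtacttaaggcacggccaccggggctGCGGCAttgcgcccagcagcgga
Meg3 has a further listed start (chr12:109545148-109545447) with 0 matches and 1 CpG, and the first Mest start (chr6:30733256-30733555) has 0 matches and 8 CpGs. In the windows shown the motif occurred 0 times in the Dlk1 window, 1 time in the Meg3 window, 2 times in the Mest window and 1 time in the Nnat window, and 11.6% of the 32851 mouse promoter windows of the same length held it on either strand. The consensus site of the GLI factors, the transcription factors of hedgehog signaling (TGGGTGGTC or GACCACCCA, either strand), was absent from all 4 and present in 0.253% of all windows. The Dlk1 window held 9 CpG dinucleotides, the Meg3 window 13, and the Mest and Nnat windows 17 each, against a median of 7 over all windows. The window of Peg3 (chr7:6730370-6730669, minus strand) held 0 ZFP57 matches and shared 263 bases with that of its divergent neighbor Usp29. These matches describe letters in a window and were not tied to any level below.

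The noncoding members of the domain are precursors of microRNAs, of which 1 each is shown to place them, together with 1 from Mest. RefSeq placed 3 mature microRNAs within Meg3, 6 within Rian, 26 within Mirg, 2 within Mest and 13 within the span of Rtl1, 11 of these on the opposite strand. The shown sequences lie at chr12:109563744-109563765 (miR-770-3p, Meg3), chr12:109592888-109592909 (miR-127-3p, opposite Rtl1), chr12:109618305-109618326 (miR-370-3p, Rian), chr12:109743764-109743784 (miR-410-3p, Mirg) and chr6:30741314-30741336 (miR-335-5p, Mest), all on the plus strand. Capitals mark the seed, bases 2 to 8 from the 5′ end, and the 5 seeds differ from each other.
miR-770-3p: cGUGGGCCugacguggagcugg
miR-127-3p: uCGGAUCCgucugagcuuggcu
miR-370-3p: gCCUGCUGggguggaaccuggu
miR-410-3p: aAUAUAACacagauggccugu
miR-335-5p: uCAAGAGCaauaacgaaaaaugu
Neither the 3′ scRNAseq nor the bulk libraries measure mature microRNAs, and the levels below are of the host transcripts only.

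The B6129PF1/J library held 3637 cells and 17168578 UMIs (molecules counted by barcode, median 3881 per cell), and the C57BL/6J library held 3928 cells and 15230413 UMIs (median 3174.5). The study's 13 clusters were used as deposited: RPE (cluster 1), ECs (2 to 4), stromal cells (5 to 8), smooth muscle cells (9), melanocytes (10), hematopoietic cells (11) and Schwann cells (12 and 13). All 21 markers chosen for these 7 cell types were highest in a cluster of their own type in both libraries. Cluster 2 was the EC cluster with the highest Kdr, the main VEGF receptor of capillaries. Levels are UMIs per 10,000 UMIs of a cluster and library, with exact Poisson 95% intervals, and shares carry exact Clopper-Pearson 95% intervals. A share of a gene's UMIs also depends on how many cells and UMIs a cell type had, and does not by itself show enrichment. Cluster 5, for example, held 23.3% of the B6129PF1/J cells and 21.4% of the C57BL/6J cells. Each strain had 1 library, so these intervals cover counting error only, and a difference between the libraries cannot be told apart from a difference between mice or preparations. The intervals treat UMIs as independent and are too narrow where a few cells hold most UMIs of a gene. UMIs were not divided by transcript length and were compared between clusters, not between genes.

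Dlk1 was confined almost entirely to ECs. Of its 3755 UMIs in B6129PF1/J, 98.2% (97.7 to 98.6) were in EC clusters, and of its 874 UMIs in C57BL/6J, 98.2% (97.0 to 99.0). In cluster 2 the level was 16.2 UMIs per 10,000 (15.6 to 16.7) in B6129PF1/J and 4.53 (4.23 to 4.85) in C57BL/6J. Cluster 3, the next EC cluster, had 2.52 (2.32 to 2.73) and 0.111 (0.0751 to 0.159), and the stromal clusters together held 1.01% and 0.915% of the UMIs. RPE cells, taken for comparison, gave 14 and 3 UMIs, never more than 1 in a cell, and 3.44% and 0.802% of them had a UMI. Where these RPE UMIs came from was not tested. The share in cluster 2 was 17.0% (63 of 370 cells) and 7.94% (32 of 403 cells), above the RPE share at a lower median depth in B6129PF1/J (4232.5 against 5263 UMIs per cell) and a like one in C57BL/6J (3460 against 3406.5). In cluster 3 of C57BL/6J, 1.28% of cells had a Dlk1 UMI, close to the share in RPE.

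**Figure D1:**
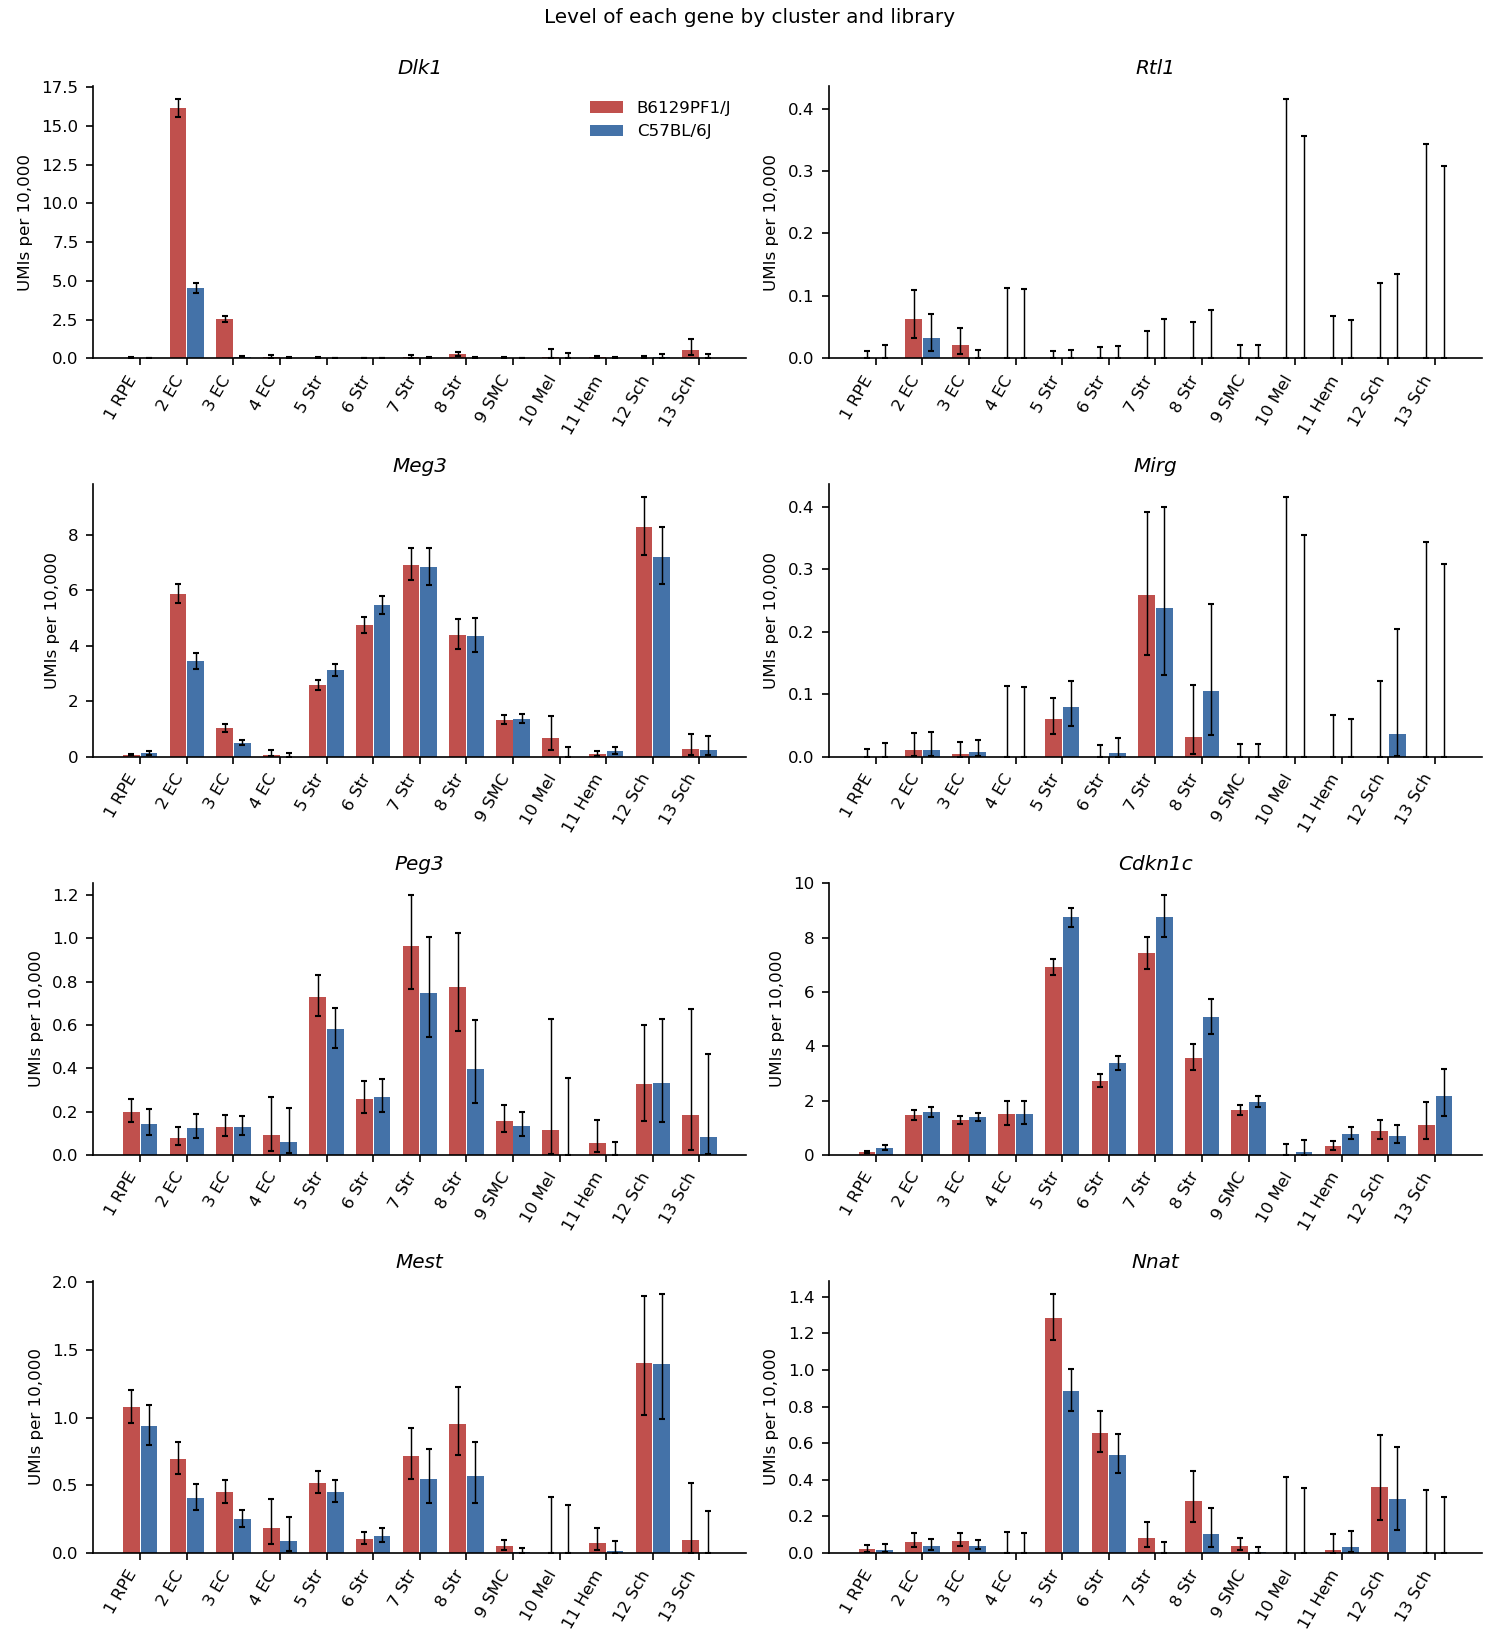
Levels of the 7 members in the scRNAseq tables and of Mirg by cluster and library, as UMIs per 10,000 (y axes differ between panels). Bars give the pooled level of a cluster, red for B6129PF1/J and blue for C57BL/6J, and error bars the exact Poisson 95% interval. Dlk1 stands in cluster 2, Nnat in clusters 5 and 6, and Meg3 has peaks in ECs, stromal cells and Schwann cells.

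Rtl1, the other paternally expressed coding gene of the domain, was near the limit of detection and was seen mostly in cells with Dlk1. It had 17 UMIs in B6129PF1/J, 12 in cluster 2 and 5 in cluster 3, and 6 UMIs in C57BL/6J, all in cluster 2. No other cluster gave any. In B6129PF1/J all 7 cells with an Rtl1 UMI (4 in cluster 2 and 3 in cluster 3) also had Dlk1, where 17.0% and 6.51% of the cells of those clusters did. In C57BL/6J 5 of the 6 cells with Rtl1 had Dlk1, where 7.94% of cluster 2 did. This overlap was counted without thinning. Cells rich in Dlk1 were deeper than cells without it, as given below, and the part of depth in the overlap was not tested. A share of 0 cells elsewhere says only that the gene was not detectable at this depth: in RPE, taking 3 counts as the most that 0 UMIs allow, the level could be up to 0.010 per 10,000 in B6129PF1/J and 0.0172 in C57BL/6J.

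Meg3, the maternally expressed noncoding RNA, had a wider pattern with peaks in unrelated cell types. It was highest in the Schwann cells of cluster 12, with 8.27 UMIs per 10,000 (7.28 to 9.35) in B6129PF1/J and 7.19 (6.22 to 8.27) in C57BL/6J. The stromal cells of cluster 7 had 6.92 (6.38 to 7.51) and 6.82 (6.17 to 7.53), and the intervals of these first 2 clusters overlapped within C57BL/6J and within B6129PF1/J. In B6129PF1/J cluster 2 followed with 5.86 (5.52 to 6.22), then the stromal clusters 6 with 4.73, 8 with 4.4 and 5 with 2.59. In C57BL/6J the order after cluster 7 was cluster 6 with 5.45, 8 with 4.36, 2 with 3.44 (3.18 to 3.72) and 5 with 3.12 (2.92 to 3.33). RPE had 0.0734 and 0.12. Stromal cells held 58.4% and 67.0% of all Meg3 UMIs, and ECs 30.1% and 20.3%. These shares also follow the number and depth of the cells of each type. The other Schwann cell cluster, 13, had 3 UMIs in each library, 0.279 and 0.250 per 10,000.

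Rian, the noncoding RNA downstream of Meg3, had no row in the scRNAseq tables. Mirg, the most distal microRNA host of the domain, had 46 UMIs in B6129PF1/J and 47 in C57BL/6J. Of these, 93.5% and 89.4% were in stromal cells, with the highest level in cluster 7 (0.259 and 0.238 per 10,000), the stromal cluster with the highest Meg3. Meg3 was not always accompanied by Mirg at this depth: cluster 2 had 2 Mirg UMIs in each library, and the Meg3-rich clusters 6 (stromal) and 12 (Schwann) each had 0 in B6129PF1/J and 1 in C57BL/6J. Dio3, an imprinted deiodinase gene at the far end of the domain, had 5 and 4 UMIs.

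Within cluster 2, Dlk1 was not spread over the cells but concentrated in a few of them. The 3 highest cells held 297, 296 and 237 Dlk1 UMIs in B6129PF1/J and 136, 125 and 121 in C57BL/6J, while 307 of 370 and 371 of 403 cells had none. Cells with at least 10 Dlk1 UMIs numbered 36 and 15 and held 97.3% and 93.7% of the UMIs of the cluster. The limit of 10 fell between cells of 9 and 10 UMIs in B6129PF1/J and between cells of 9 and 13 in C57BL/6J. The variance of Dlk1 UMIs over cells was 154 and 79.4 times the mean. For comparison, Plvap, a protein of fenestrated capillaries, was found in all 370 and all 403 cells, with a variance 10.2 and 17.6 times the mean.

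Meg3 in the same cluster had a like pattern, unlike its pattern in Schwann cells. Of cluster 2 cells, 19.2% and 15.4% had a Meg3 UMI, with up to 69 and 62 UMIs in a cell and 47 and 23 cells at 10 or more. In the Schwann cells of cluster 12, where the pooled level was higher, 73.1% and 77.8% of the cells had a UMI, but the highest cell held 17 and 13. The variance was 22.3 and 20.4 times the mean in cluster 2 and 3.31 and 1.80 times in cluster 12. Thinned to 1700 UMIs per cell, the shares were 17.6% and 12.7% in cluster 2 and 58.3% and 67.6% in cluster 12.

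Dlk1 and Meg3 were the 2 most unevenly distributed of the abundant genes of these ECs. Among the 566 genes with at least 500 UMIs in cluster 2 of each library, the tenth of cells richest in a gene held a median of 29.4% of its UMIs in B6129PF1/J and 32% in C57BL/6J. For Dlk1 the value was 97.6% and 100%, the highest of the 566, and for Meg3 80.0% and 94.4%, the second highest in both libraries. The 100% was fixed by detection, as only 7.94% of the C57BL/6J cells had a Dlk1 UMI. The same 2 genes had the fewest cells with a UMI, where the median gene was found in 87.0% and 80.9% of the cells. This is not a separate result, because a gene found in few cells has its UMIs concentrated in them. No test was made, because the cells of a library are not replicates.

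**Figure D2:**
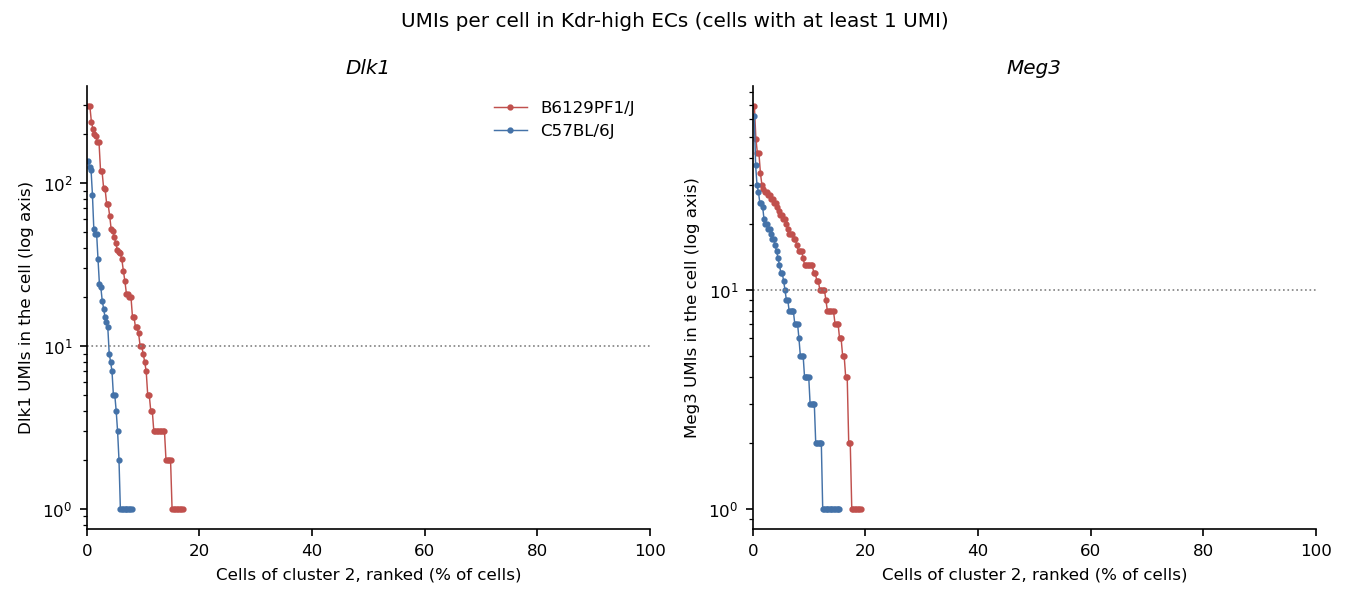
UMIs of Dlk1 (left) and Meg3 (right) in single cells of cluster 2 on a log axis, against the rank of the cell as a percent of all cells of the cluster. Each point is a cell with at least 1 UMI, red for B6129PF1/J and blue for C57BL/6J, and the dotted line marks 10 UMIs. The curves end at 17.0% and 7.94% of the cells for Dlk1 and at 19.2% and 15.4% for Meg3.

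The cells with Dlk1 and the cells with Meg3 overlapped. In B6129PF1/J 24 cells of cluster 2 had both, where the product of the 2 shares gives 12.1, and in C57BL/6J 17 cells had both, where it gives 4.92. Meg3 was found in 38.1% of the cells with Dlk1 and 15.3% of those without in B6129PF1/J, and in 53.1% and 12.1% in C57BL/6J. With every cell thinned to 1700 UMIs, the cells with both were 16 against a product of 9.49, and 14 against 2.78. At 10 or more UMIs of each gene they were 11 against 4.57, and 7 against 0.856. The reverse was partial: 33.8% and 27.4% of the cells with Meg3 had Dlk1, so most cells of cluster 2 with Meg3 had no Dlk1 UMI.

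Meg3 was highest in the cells richest in Dlk1. In B6129PF1/J it was 4.66 UMIs per 10,000 (4.31 to 5.02) in the 307 cells without Dlk1, 5.35 (4.38 to 6.48) in the 27 with 1 to 9 Dlk1 UMIs and 12.9 (11.6 to 14.4) in the 36 with at least 10. In C57BL/6J the 3 values were 2.18, 4.06 and 22.8. Cdkn1c, which encodes the cyclin-dependent kinase inhibitor p57 and lies on chromosome 7, had the opposite order. It was at 1.58 (1.38 to 1.80) in cells without Dlk1 and 0.612 (0.350 to 0.993) in those with at least 10 in B6129PF1/J, and at 1.56 (1.37 to 1.76) and 0.779 (0.336 to 1.54) in C57BL/6J, where the intervals overlapped. After thinning, 2 of the 54 cells with Dlk1 (3.70%) and 22.5% of other cells had Cdkn1c in B6129PF1/J. In C57BL/6J it was 1 of the 22 cells with Dlk1 (4.55%) and 15.2% of other cells. The products of the shares give 10.7 and 3.22 cells with both, so these shares rest on few cells. Mest was at 0.677 and 0.879 (0.557 to 1.32) in the B6129PF1/J cells without and with at least 10 Dlk1 UMIs, a difference within the counting intervals.

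The cells with at least 10 Dlk1 UMIs held the EC genes Kdr and Plvap. Plvap was lower in them than in the cells without Dlk1 in both libraries. Kdr was at 16.5 in the cells without Dlk1 and 15.6 in those with at least 10 UMIs in B6129PF1/J, and at 14 and 13.8 in C57BL/6J, while Plvap was at 76.9 and 59.6, and at 79.1 and 61.9. Of the 3 stromal markers, the 36 B6129PF1/J cells with at least 10 Dlk1 UMIs held 0 UMIs of Col1a1, 0 of Pdgfra and 1 of Pdgfrb, and the 15 C57BL/6J cells held 1, 1 and 0. The RPE gene Rgr was at 1.26 UMIs per 10,000 in the B6129PF1/J cells without Dlk1 and at 1.15 in those with at least 10, and at 0.712 and 0.195 (0.0236 to 0.704) in C57BL/6J. Median depth differed, with 4110 and 3434 UMIs per cell without Dlk1 and 5806.5 and 3874 with at least 10. The study's methods estimate doublets and do not state that any were removed, and none were removed here. Cells with over 10,000 UMIs numbered 27 and 30 in cluster 2. Without them, the level of Dlk1 was 14.1 and 4.59, and 19 and 14 cells had both Dlk1 and Meg3, where the products were 9.24 and 3.91.

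**Figure D3:**
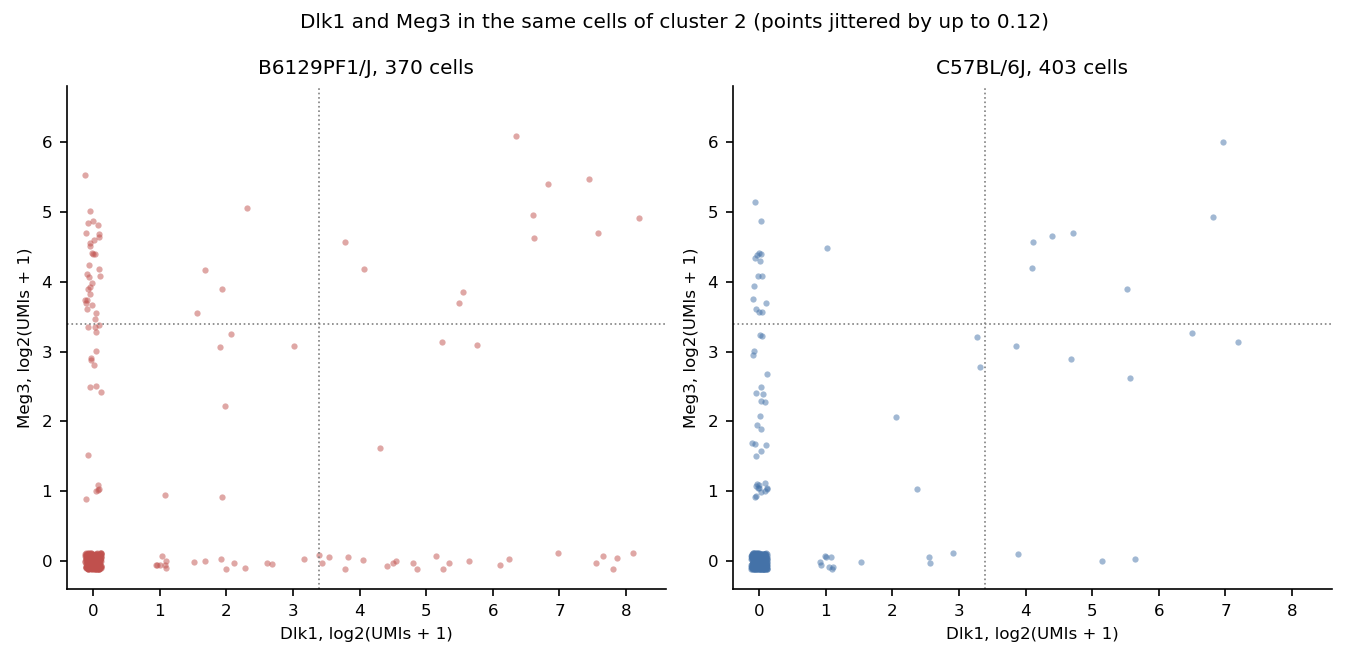
Dlk1 (x) and Meg3 (y) in each cell of cluster 2, as log2(UMIs + 1), in B6129PF1/J (left, 370 cells) and C57BL/6J (right, 403 cells). Points are single cells moved by a small random shift, and dotted lines mark 10 UMIs. Cells beyond both lines number 11 and 7, and most cells lie at 0 for both genes.

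In cluster 3 the Dlk1 cells were the deep ones. The 28 B6129PF1/J cells with Dlk1 had a median of 10357 UMIs against 4021.5 in those without, and the 11 with at least 10 Dlk1 UMIs had 12286. These 11 cells had Kdr at 18.3 per 10,000, against 7.90 in the cells without Dlk1. Without the 61 cells of over 10,000 UMIs, the B6129PF1/J level in cluster 3 was 0.893 per 10,000 in place of 2.52, and 3 cells had at least 10 Dlk1 UMIs in place of 11. Whether cluster 3 holds Dlk1 cells of its own or doublets with cluster 2 was not tested.

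Among the members and clusters with at least 100 UMIs over both libraries, Dlk1 differed most between the libraries. In cluster 2, B6129PF1/J had 3.56 times the C57BL/6J level (3.30 to 3.85), and 0.383% of the 4962 genes with at least 100 UMIs over both libraries were at least 3-fold above in that direction. The ratio was 2.62 with cells thinned to 1700 UMIs, 2.90 as a mean over cells and 3.84 without the highest cell of each library. The thinned ratio and the mean over cells lay below the interval of 3.30 to 3.85, which treats UMIs as independent. In cluster 2, 36 and 15 cells with at least 10 Dlk1 UMIs held 97.3% and 93.7% of them, so that interval is too narrow. The number of cells differed in the same direction, as 10 B6129PF1/J cells and 3 C57BL/6J cells of cluster 2 had at least 100 Dlk1 UMIs. In cluster 3 the ratio was 22.6 (15.7 to 33.8), from 608 and 30 UMIs, but 21 of the 30 were in 1 cell. Without the highest cell of each library the levels in cluster 3 were 2.04 and 0.0336 per 10,000, so the size of this ratio rests on few C57BL/6J cells. Kdr differed by 1.17 and Plvap by 0.947 in cluster 2.

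Meg3 and Mest were also higher in B6129PF1/J in the EC clusters 2 and 3. Meg3 was 1.70 times as high in cluster 2 (1.54 to 1.88) and 2.09 times in cluster 3 (1.69 to 2.60). In cluster 2, 47 and 23 cells with at least 10 Meg3 UMIs held 90.1% and 77.2% of them, so the interval there is too narrow. Meg3 was at 0.829 times in cluster 5, 0.868 in cluster 6 and 1.01 in cluster 7. In cluster 12 it was at 1.15, with an interval that includes 1. Mest, which encodes a protein of the alpha/beta hydrolase fold, was 1.71 times as high in cluster 2 (1.28 to 2.30) and 1.77 times in cluster 3 (1.30 to 2.44), with 1.68 in the stromal cluster 8 (1.05 to 2.75), 1.15 in RPE (0.948 to 1.39) and 1.01 in cluster 12. Cdkn1c was lower in B6129PF1/J in its main clusters, at 0.791 times in cluster 5 (0.746 to 0.838) and 0.846 times in cluster 7 (0.752 to 0.953), and at 0.938 times (0.793 to 1.11) in cluster 2. In the cluster where each was highest, 2 of the 7 members were past 1.5-fold between the libraries, Dlk1 and Rtl1 (1.92, 0.666 to 6.23, from 12 and 6 UMIs), where 20.2% of the genes with at least 10 UMIs over both libraries were in cluster 2, 17.9% in cluster 5, 27.9% in cluster 7 and 33.1% in cluster 12. Rtl1 lay at 0.545 after thinning. With at least 100 UMIs asked for, Dlk1 alone was past the limit, where 6.35%, 5.99%, 8.95% and 10.2% of genes were in those 4 clusters.

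**Figure D4:**
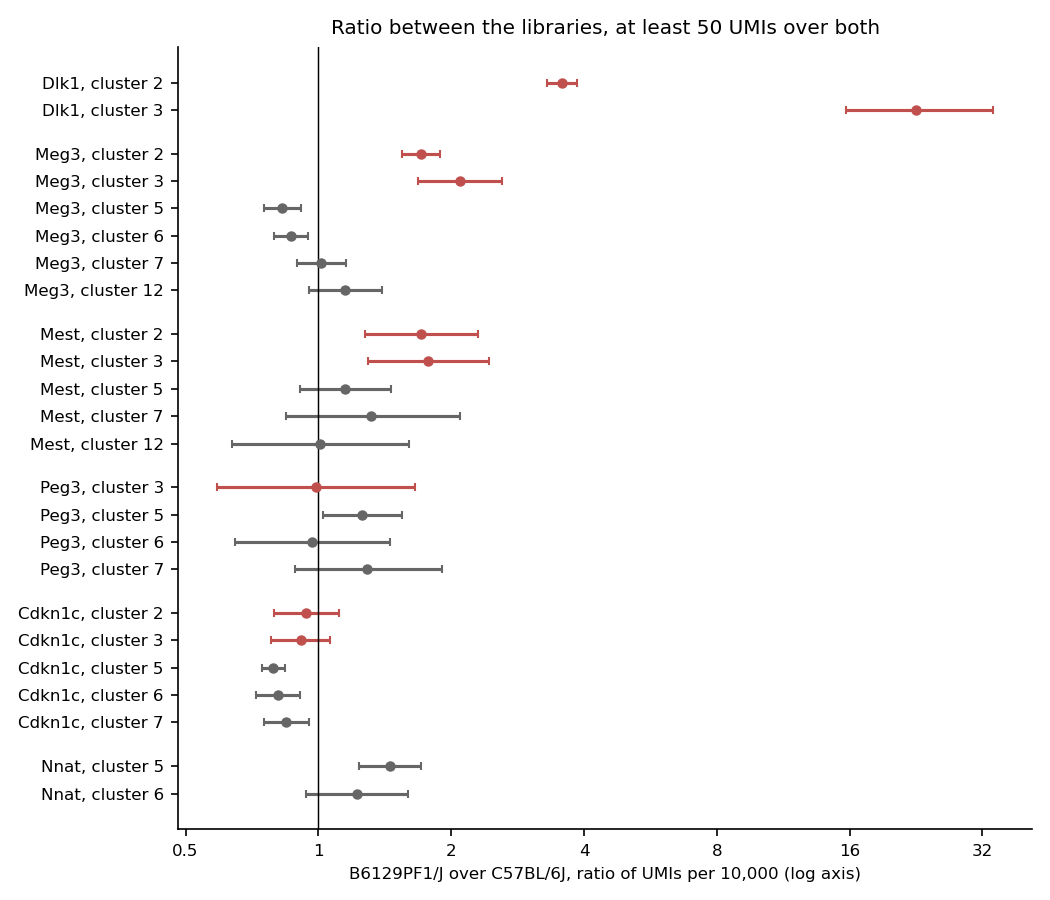
Ratio of B6129PF1/J to C57BL/6J for members with at least 50 UMIs over both libraries, in clusters 2, 3, 5, 6, 7 and 12, on a log axis. Points are ratios of UMIs per 10,000, bars the exact 95% counting intervals, red for EC clusters and gray for others, and the line marks 1. Dlk1 stands at 3.56 and 22.6, the latter with 21 of its 30 C57BL/6J UMIs in 1 cell. The EC points of Meg3 and Mest lie above 1. The intervals treat UMIs as independent and are too narrow for Dlk1 and Meg3 in cluster 2, where few cells held most of the UMIs.

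Cdkn1c, Peg3 and Nnat were genes of the stromal cells. Of the 6 members with at least 100 UMIs in each library, these 3 were highest in a stromal cluster in both libraries, as were 12.1% of the 9664 genes with that many UMIs. Dlk1 was highest in cluster 2 (4.95% of genes), and Meg3 and Mest in cluster 12 (3.88%). All 6 kept the highest cluster between the libraries in the pooled data, as did 49.3% of the genes.

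Cdkn1c had 4629 UMIs in B6129PF1/J and 5021 in C57BL/6J, with 78.0% and 76.1% in stromal cells. It was highest in cluster 7, at 7.42 (6.85 to 8.02) and 8.77 (8.02 to 9.56), and level with it in cluster 5, at 6.92 (6.63 to 7.21) and 8.75 (8.40 to 9.10). These intervals overlapped in each library. Clusters 8 (3.57 and 5.07) and 6 (2.73 and 3.38) followed, ECs and smooth muscle cells lay between 1.28 and 1.95, RPE was at 0.107 and 0.263, and the few melanocytes had 0 and 1 UMIs. In contrast to Dlk1, it was widespread in its cells, with a UMI in 80.0% and 82.4% of cluster 5 (61.0% and 67.9% after thinning).

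Peg3, a large zinc finger protein, had 569 and 394 UMIs, 73.1% and 69.8% of them in stromal cells. Its level was 0.966 (0.768 to 1.20) and 0.749 (0.544 to 1.01) in cluster 7 and 0.731 and 0.581 in cluster 5, and cluster 8 had 0.775 in B6129PF1/J and 0.398 in C57BL/6J. All of these intervals overlapped with that of cluster 7. ECs were lower, at 0.0787 and 0.126 in cluster 2. Usp29, which starts beside Peg3 on the other strand, had 10 and 3 UMIs.

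Nnat, which encodes a small membrane proteolipid, was the most restricted of the stromal members. Stromal cells held 91.5% (89.0 to 93.5) and 91.7% (88.4 to 94.2) of its 620 and 384 UMIs. Cluster 5 had 1.28 (1.16 to 1.42) and 0.885 (0.777 to 1.00) per 10,000 and cluster 6 had 0.656 and 0.537, while cluster 7, where Cdkn1c, Peg3 and Mirg were highest, had 0.0824 (0.0331 to 0.170) and 0 (up to 0.0511 at 3 counts). The ratio between the libraries in cluster 5 was 1.45 (1.24 to 1.71).

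Mest was the only member whose level in RPE was close to its highest. Its level was 1.41 (1.02 to 1.89) and 1.39 (0.986 to 1.91) in the Schwann cells of cluster 12 and 1.08 (0.963 to 1.20) and 0.938 (0.80 to 1.09) in RPE, with intervals that overlapped. Stromal clusters 8 and 7 had 0.949 and 0.718 in B6129PF1/J and 0.565 and 0.545 in C57BL/6J, and cluster 2 had 0.693 and 0.405. It was at 0.0507 and 0.0112 in smooth muscle cells. In RPE 44.0% and 30.5% of cells had a Mest UMI (15.5% and 16.3% after thinning), and the highest cell held 7 and 6.

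The wider list of imprinted genes shared no one pattern. Of 43 other imprinted genes, 38 had a row in the scRNAseq tables and 27 had at least 100 UMIs in each library, and of these 27, 4 were highest in a stromal cluster, 1 in cluster 2 and 2 in cluster 12 in both libraries, while 14 had the same highest cluster. Over all 9664 genes with that many UMIs, the shares were 12.1%, 4.95%, 3.88% and 49.3%, in that order. At 1 UMI per 10,000 or more in both libraries were Gnas, which encodes the stimulatory G protein alpha subunit (36.7 and 33.3 in cluster 8), Sgce, epsilon-sarcoglycan (2.88 and 2.53 in cluster 12), Ndn, necdin (2.08 and 1.90 in cluster 5), H13, signal peptide peptidase (1.97 and 2.13 in cluster 6), the noncoding Kcnq1ot1 from the domain of Cdkn1c (2.07 in cluster 7 and 2.25 in cluster 2), Commd1 (1.58 in cluster 13 and 1.60 in RPE), Nap1l5 (1.28 and 1.66 in RPE) and Ube3a, a ubiquitin ligase (1.48 and 1.5).

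The genes whose levels over the 26 points (13 clusters in 2 libraries) were most like those of a member, by Pearson's r of log2(UMIs per 10,000 + 0.1), differed from member to member. For Dlk1 they were Robo3 (r = 0.93), Chrm2 (0.93) and Adamtsl2 (0.91). For Meg3 they included Tmem5 (0.87) and Fkbp10 (0.84). For Peg3 they were Gng8 (0.92), Loxl1 (0.90) and Col1a1 (0.89), and for Cdkn1c Akap12 (0.91), Pdlim2 (0.91) and Tshz2 (0.89). For Nnat they were Blm (0.91), Pcsk1n (0.86) and Vstm4 (0.86), and for Mest Mttp (0.81), Zc3h15 (0.78) and Coro2b (0.76). Between members, the r of Dlk1 and Meg3 over clusters was 0.23, low beside their overlap in single cells of cluster 2. The points share 2 libraries and differ in depth, so these values describe likeness and carry no p.

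In the table of genes enriched in choroidal ECs, Dlk1 and Rtl1 were listed with ECs of the other organs near 0. The authors' mean FPKM of Dlk1 was 20.9 in choroidal ECs, 0.142 in lung ECs, 0.017 in heart, 0.004 in neural retina and 0.002 in liver. Rtl1 was at 1.87 in choroidal ECs, 0.027 in neural retina, 0.003 in lung and listed at 0 in liver and heart. The ratio of choroid to the highest other organ was 147 for Dlk1, rank 4 of the 97 genes with such a ratio, and 69.4 for Rtl1, rank 6. Per length, Dlk1 was thus the more abundant of the pair in ECs of the choroid. Among the 48 other imprinted genes and domain neighbors, Zdbf2 alone was listed, at 1.75 against 0.112 in neural retina. The table holds only genes chosen for at least 5-fold higher values in choroid, so its contents follow from that choice, and the other 6 members have no value in it. It also lists genes of RPE (Rpe65, 21.8 in choroid and 0.979 in neural retina; Rgr, 50.9) and of GLI1+ cells (Gli1, 3.58), and the part of other cells in the choroidal values was not tested. The libraries behind the choroid column were not analysed here.

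In RPE/choroid tissue, no tested member differed by 1.5-fold between IhhiΔEC/iΔEC and Ihh+/+ mice. The bulk tables give a mean FPKM per group and no value per mouse, so no spread, interval or test was computed, and fewer cells of a type cannot be told apart from less RNA per cell. Ratios are of mean FPKM after adding 0.1 to each. Ihh itself was at 0.454 in IhhiΔEC/iΔEC and 1.53 in Ihh+/+, and Gli1, a direct target of hedgehog signaling, at 3.15 and 9.40. Of the 7 members that reached 1 FPKM in either group, 0 were past 2-fold and 0 past 1.5-fold, where 1.67% and 4.43% of 11411 genes were.

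Dlk1 was at 2.03 FPKM in IhhiΔEC/iΔEC and 2.12 in Ihh+/+ (log2 ratio -0.06), Meg3 at 7.71 and 8.97 (-0.21) and Rian at 2.14 and 2.25 (-0.07). Rtl1 was at 0.111 and 0.0990, below the limit of 1 FPKM. Per length, Meg3 was 3.99 times Rian in Ihh+/+ and 3.60 times in IhhiΔEC/iΔEC, which gives Rian, the member without an scRNAseq row, a place among the expressed genes of the tissue.

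Outside the domain, Mest had the largest ratio of the members, at 30.4 and 23.0 FPKM (log2 0.40), higher in relative terms than 96.4% of the genes tested. Nnat was at 1.19 and 1.56 (-0.36), Cdkn1c at 21.7 and 26.4 (-0.28) and Peg3 at 2.36 and 2.26 (0.06). The median log2 ratio of the 7 tested members was -0.07, and that of all genes tested was -0.04. Markers of cell types differed between the genotypes on the same scale. Those of RPE, where Mest was expressed, were 1.16 to 1.34 times as high (3 of 3). Those of stromal cells were at 0.578 to 0.833 times (3 of 3). Of the members highest in stromal cells, Cdkn1c and Nnat were lower and Peg3 was not. The 3 EC markers, of the cells that hold Dlk1, were at 0.820 to 0.989 times, and the 3 melanocyte markers at 0.544 to 0.701 times. All 7 rod photoreceptor markers were lower past 2-fold (summed 31.8 against 89.8 FPKM), and 8 of 8 skeletal muscle markers were higher (471 against 350). Of the 11411 genes tested, 6767 were lower and 4642 higher in IhhiΔEC/iΔEC. The part of tissue composition in the ratios of the members was not tested.

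Among 27 tested genes of the wider imprinted list, 0 were past 1.5-fold, with log2 ratios from -0.57 for Kcnq1 to 0.51 for Nap1l5. Nap1l5, which was highest in RPE in the scRNAseq libraries, was at 25.3 and 17.8 FPKM. Igf2, the growth factor gene, was at 26.3 and 21.4, and H19, its noncoding neighbor, at 5.85 and 8.36.

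**Figure D5:**
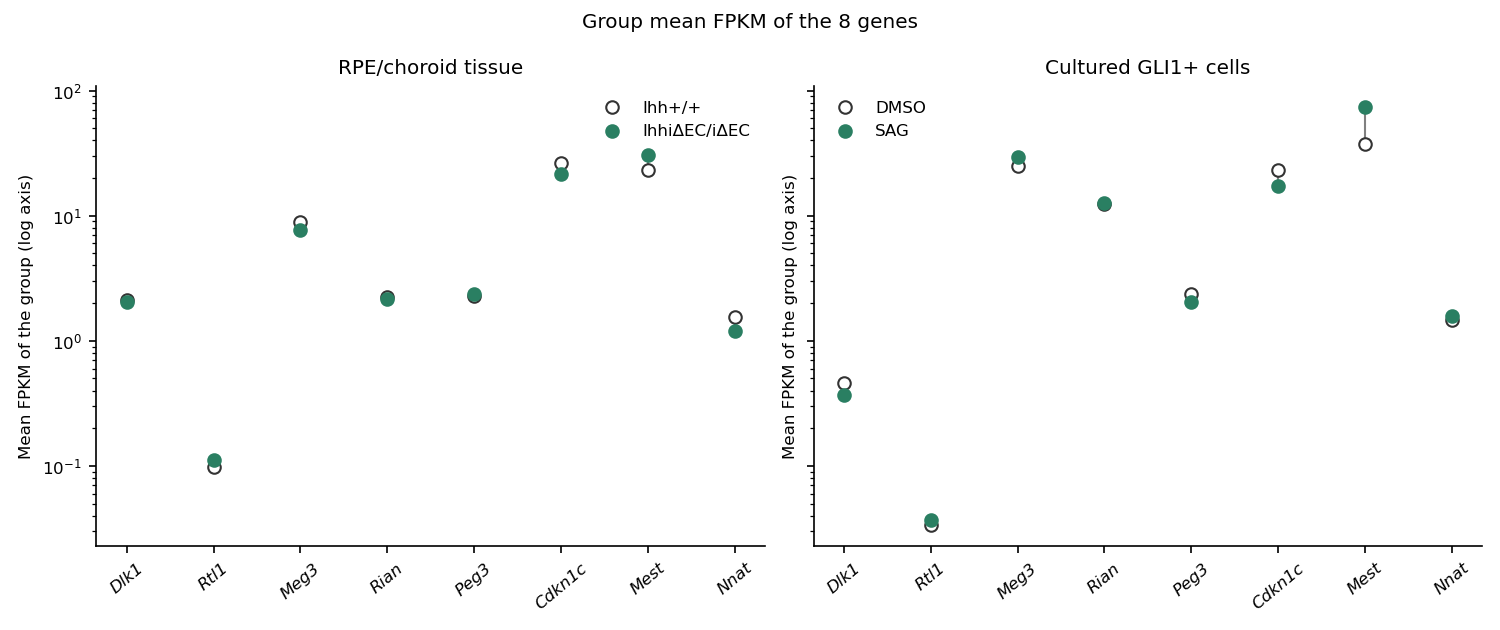
Mean FPKM of the 8 members on a log axis in RPE/choroid of Ihh+/+ (open) and IhhiΔEC/iΔEC (filled) mice, left, and in GLI1+ cells under DMSO (open) and SAG (filled), right. Each point is the authors' mean of a group, with no spread given. Mest under SAG, at 74.0 against 37.3, is the widest gap.

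In cultured GLI1+ cells Mest had the largest difference among the members after SAG. It was at 74.0 FPKM with SAG and 37.3 with DMSO, a ratio of 1.98 (log2 0.99), just below 2-fold and above 99.6% of the genes tested. Of the 6 members with at least 1 FPKM, 0 were past 2-fold and 1, Mest, past 1.5-fold, where 1.47% and 3.67% of 10325 genes were (1.3% past 1.5-fold and higher). Copg2, whose gene runs on the opposite strand across the 3′ end of Mest, was at 19.9 and 12.9. Strand was not stated for these libraries, so reads in the overlap cannot be assigned to one of the pair. The hedgehog targets Gli1 (3.65 and 0.028) and Ptch1 (10.1 and 1.13) were higher with SAG.

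Cdkn1c was lower with SAG, at 17.4 and 23.2 FPKM (log2 ratio -0.41), below all but 3.88% of the genes tested. Of 6 genes of cycling cells, all 6 were also lower, as were 3313 of the 10325 genes tested. Past 1.5-fold were 3 of the 6, and 0 were past 2-fold. The 6 summed to 10.3 and 15.5 FPKM, with Mki67 at 0.871 and 1.5. Peg3 was at 2.05 and 2.37 (-0.20) and Nnat at 1.59 and 1.47 (0.10).

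The noncoding members of the Dlk1-Meg3 domain were abundant in these cells, and Dlk1 was not. Meg3 was at 29.4 FPKM with SAG and 24.9 with DMSO (log2 ratio 0.24), Rian at 12.5 and 12.4 (0.02), while Dlk1 was at 0.370 and 0.459 and Rtl1 at 0.0370 and 0.0337, both below 1 FPKM. Dlk1 was 0.0184 times Meg3 per length under DMSO, against 0.237 times in the Ihh+/+ tissue. The 3 EC markers summed to 0.348 and 0.249 FPKM in the cultures. Tissue and cultures differ in mice, cell types and culture, and the source of the difference in ratio was not tested. Dio3 was the one gene of the wider list past 2-fold, at 0.915 and 2.01 (-1.05), and 5 of its 27 tested genes were past 1.5-fold: Dio3, H19 (33.2 and 60.9), Peg10 (1.55 and 2.4), the noncoding Airn (5.06 and 3.29) and Copg2. The median log2 ratio was 0.06 for the tested members and 0.06 for all genes tested.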

How the data were processed

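RPE/choroid single cells (2 libraries), sorted ECs, RPE/choroid tissue and cultured GLI1+ cells (3 libraries per group) made up 26 samples. For the scRNAseq libraries the authors deposited raw UMI counts per gene and cell, made with Cell Ranger on mm10, with their cluster and cell type for each cell from Seurat 2.1. For the bulk libraries the deposited values were mean FPKM per group, from STAR 2.4.0f1 alignment and Cufflinks 2.0.2, as named in the submitters' processing notes. Those tables also carry columns of fold changes and p-values by the authors, which were not used. One further deposited file per scRNAseq library, and the choroidal EC libraries, were not used here.

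UMI counts were summed by cluster and library over all deposited cells, per 10,000 UMIs, with pandas 2.3.3 and scipy 1.17.1 (Python 3.11.15). The lowest cell held 1959 UMIs in B6129PF1/J and 1717 in C57BL/6J, and 22 barcodes occurred in both libraries. The deposited tables hold fewer cells than the study states, for a reason not given in the sources used here. Cluster sizes differ from the study's in both directions. Cluster 5 held 848 B6129PF1/J and 839 C57BL/6J cells, more than the study lists, and cluster 7 held 185 and 158, fewer than it lists. Thinning drew 1700 UMIs from every cell. Intervals are at 95% and cover counting error only. Bulk ratios added 0.1 FPKM and asked for at least 1 FPKM in the higher group. The depth of the bulk libraries is unknown from these tables. No test between groups was made, because the bulk tables hold no values per library and each strain has 1 scRNAseq library, and the ratio code was tested on simulated counts. Named genes were the 8 members, genes of a list of 48 imprinted genes and neighbors with at least 1 UMI per 10,000 in a cluster of both libraries or past 2-fold in a bulk comparison, and the 3 genes most like each member among those with at least 100 UMIs in each library, of which 1 is not reported here. Other genes named were chosen after their values were seen, apart from markers. The members and lists were chosen with earlier results of these data known.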

Additional observations from a re-analysis of the deposited data

How the results depend on the processing

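The 3 members highest in a stromal cluster stayed 3 under thinning to 1700 UMIs, without mitochondrial genes, without the highest cell and as a mean over cells. The 2 members past 1.5-fold between the libraries became 1 without the highest cell of the gene and 1 with at least 100 UMIs, a limit added after seeing the data; thinning gave 3, and the Rtl1 ratio turned to 0.545 from a few UMIs. Leaving out cells of more than 10,000 UMIs, also added after seeing the data, gave a Dlk1 ratio of 3.08 in cluster 2 and, in cluster 3, levels of 0.893 (0.754 to 1.05) and 0.0155 (0.00319 to 0.0452) from 145 and 3 UMIs. No member was past 2-fold in either bulk comparison under any pseudocount, minimum or scaling tried, and at 1.5-fold 1 was with SAG (Mest). Over all genes, the 191 past 2-fold in Ihh tissue became 106 with a pseudocount of 1, 444 with no minimum and 506 at 1.5-fold, and the 152 with SAG became 240 with no minimum and 379 at 1.5-fold. The stromal share of Mest in B6129PF1/J was 45.2% after thinning in place of 32.9%. No paired analysis was possible because the bulk tables hold a mean per group and each strain has 1 scRNAseq library; leaving out each replicate was not run for the same reason. Depth limits what can be said of Rtl1, Mirg, Dio3 and Usp29 and of the 16 and 26 melanocytes.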

Other observations

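H19, a noncoding RNA of the Igf2 domain that was named here after its values were seen, resembled Dlk1 in being held by few cells, but in the stromal cells. Of its 116 UMIs in B6129PF1/J and 137 in C57BL/6J, 90.5% and 92.0% were in stromal cells. In cluster 7 its level was 0.954 UMIs per 10,000 (0.757 to 1.19) and 1.62 (1.31 to 1.98), from 12 of 185 and 13 of 158 cells, with up to 40 and 27 UMIs in a cell. The variance over these cells was 22.6 and 14.4 times the mean, against 7.05 and 5.19 times for Meg3 in the same cluster, which had a UMI in 70.8% and 65.8% of the cells. In GLI1+ cultures H19 was at 33.2 FPKM with SAG and 60.9 with DMSO.

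Dio3, at the end of the Dlk1-Meg3 domain, was at 0.462 FPKM in IhhiΔEC/iΔEC and 0.0947 in Ihh+/+ tissue, both below the limit of 1 FPKM, and at 0.915 with SAG and 2.01 with DMSO in GLI1+ cultures.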
